A study of Mus musculus with 3 samples.

Results

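Purine-rich constitutive coding exons were examined in maps of Tra2β crosslinks from mouse testis. An exon was a member when it was internal, lay wholly in coding sequence, measured more than 50 and less than 400 nt, kept the same coordinates in every protein-coding transcript spanning it, and held at least 60% A plus G on the sense strand of GRCm39 with the GENCODE vM39 annotation. This rule used sequence and annotation alone, with no crosslink value. It gave 14080 exons in 6005 genes, which were 14.1% of the 100207 constitutive coding exons of this size and 12.1% of their bases. For comparison, 11041 exons met the same rule with at most 45% purine and are called purine-poor here.

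The study mapped where the endogenous protein contacts RNA in testes of adult wild type mice, to ask which exons whose splicing changed after deletion of a Tra2b poison exon are bound directly. It used iCLIP, in which minced testes were irradiated with ultraviolet-C light, the protein was recovered with a polyclonal anti-Tra2b antibody, and the end of each cDNA marks the crosslinked nucleotide. There was 1 group of 3 biological replicates, with the cell type labelled mixed and the genotype wild type. No input, no-antibody or knockout library and no RNA abundance was analysed here, so each exon was set against the other exons of its own transcript in the same library.

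Tra2β is an SR-like protein that binds GAA-containing RNA through its RNA recognition motif and activates splicing of exons that carry such sites. Such stretches act as exonic splicing enhancers, and Tra2β is best known for its action on alternatively spliced exons. Within coding sequence a purine-rich stretch also has a meaning for the protein, since GAA and GAG encode glutamate and AAG and AAA encode lysine. In the members these 4 codons made up 6.37%, 7.17%, 6.11% and 4.78% of codons, against 1.19%, 1.97%, 1.76% and 0.919% in purine-poor exons.

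The sequences below are 8 of the 10 members with the highest mean crosslink level relative to their transcript among those called higher in all 3 libraries, as described further on. They are followed by the member with the most crosslinks, Chd5 exon 3, and by the member with the fewest crosslinks for its expectation, Ccdc136 exon 3, which were added to set both extremes beside them. Each is the sense strand from 5′ to 3′, GRCm39, with every GAA in capitals.
Kpna4 exon 3, chr3:69008674-69008763, minus strand: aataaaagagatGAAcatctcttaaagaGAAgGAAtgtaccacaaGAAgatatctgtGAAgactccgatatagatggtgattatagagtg
Ift57 exon 4, chr16:49526454-49526544, plus strand: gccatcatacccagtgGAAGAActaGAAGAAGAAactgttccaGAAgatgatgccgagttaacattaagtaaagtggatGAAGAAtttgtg
Ipo5 exon 21, chr14:121179242-121179297, plus strand: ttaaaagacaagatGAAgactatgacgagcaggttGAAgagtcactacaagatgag
Arglu1 exon 2, chr8:8733748-8733973, minus strand: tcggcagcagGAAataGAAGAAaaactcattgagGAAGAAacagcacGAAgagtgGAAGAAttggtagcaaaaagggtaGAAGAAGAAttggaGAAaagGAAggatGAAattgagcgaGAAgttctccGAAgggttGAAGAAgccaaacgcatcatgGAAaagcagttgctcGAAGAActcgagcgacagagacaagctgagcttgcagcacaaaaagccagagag
Cfap298 exon 3, chr16:90726804-90726871, minus strand: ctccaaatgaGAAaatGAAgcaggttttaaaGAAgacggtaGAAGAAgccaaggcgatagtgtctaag
Mtdh exon 9, chr15:34134437-34134544, plus strand: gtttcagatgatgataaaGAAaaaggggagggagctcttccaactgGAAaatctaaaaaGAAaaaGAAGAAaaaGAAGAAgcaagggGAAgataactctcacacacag
Supt5 exon 3, chr7:28030005-28030070, minus strand: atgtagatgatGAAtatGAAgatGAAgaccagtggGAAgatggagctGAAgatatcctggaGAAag
Trip12 exon 27, chr1:84722399-84722472, minus strand: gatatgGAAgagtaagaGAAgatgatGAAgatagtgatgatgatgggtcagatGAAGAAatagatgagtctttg
Chd5 exon 3, chr4:152437998-152438186, plus strand: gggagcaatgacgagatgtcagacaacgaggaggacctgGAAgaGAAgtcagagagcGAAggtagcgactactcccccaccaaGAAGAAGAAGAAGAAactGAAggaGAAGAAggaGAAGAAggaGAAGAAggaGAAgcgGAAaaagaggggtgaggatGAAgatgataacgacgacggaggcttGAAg
Ccdc136 exon 3, chr6:29399200-29399448, plus strand: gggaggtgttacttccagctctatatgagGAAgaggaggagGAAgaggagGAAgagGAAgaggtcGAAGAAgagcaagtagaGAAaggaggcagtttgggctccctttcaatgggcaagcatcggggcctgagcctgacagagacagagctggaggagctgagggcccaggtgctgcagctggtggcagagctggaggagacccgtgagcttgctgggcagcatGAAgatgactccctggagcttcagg

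The last of these sequences held 8 GAA and had no crosslink in any library, while the Kpna4 exon held 5 GAA and had 29 crosslinks. The exons next to the empty Ccdc136 exon were also empty, as given further on, and its presence in testis RNA was not tested. Over all members, GAA occurred 4.55 times per 100 nt, against 2.15 in the other constitutive coding exons and 1.06 in purine-poor exons. At least 1 GAA was present in 98.9% of members and 91.0% of the other exons, AGAA in 85.7% and 59.02%, and GAAGA, which contains GAA, in 60.1% and 31.1%. These motifs were searched on the sense strand only. In the members 46.1% of GAA fell in frame as the glutamate codon, 42.0% started at the third codon position and 11.9% at the second. The members were A-rich more than G-rich, with 34.6% A and 29.2% G. Their median length was 105 nt, against 129 nt in the other exons and 120 nt in purine-poor exons, and their median purine share was 63.1% with a maximum of 95.3%.

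The libraries held 348033, 619571 and 488719 crosslinks in replicates 1, 2 and 3, where a crosslink is 1 unique cDNA at 1 nucleotide. Replicate 2 stood apart, since it was the deepest library yet placed the smallest share of its crosslinks in members, and values without it are given beside those that it moved most. Germ cell markers were found in all 3 libraries for 18 of 18 genes, with a summed level of 3626, 1012 and 5070 CPM (crosslinks scaled to a common library total). Markers of other testis cells had lower summed levels, over shorter lists. Found in all 3 libraries were 4 of 7 Sertoli genes (175, 51.6 and 143 CPM, with Amh at 0) and 4 of 6 Leydig genes (100.6, 38.7 and 90.0 CPM). The same held for 1 of 4 macrophage genes (2.87, 3.23 and 2.05 CPM) and 0 of 4 peritubular and vascular genes (14.4, 0 and 28.6 CPM). Single genes of the lists overlapped. The Sertoli gene Clu (138, 21.0 and 110 CPM) was above the germ cell gene Dazl (14.4, 6.46 and 28.6 CPM) and below the germ cell gene Odf2 (873, 168 and 1410 CPM). The part of the lower marker levels of replicate 2 in the results was not tested. In minced testis, fewer cells of a type, less RNA per cell and less crosslinking per RNA cannot be told apart.

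Members took a large share of the crosslinks in constitutive coding exons. They held 8582, 9930 and 17740 crosslinks, which were 2.47%, 1.60% and 3.63% of the libraries (95% Clopper-Pearson intervals 2.41 to 2.52%, 1.57 to 1.63% and 3.58 to 3.68%, counting error only). Of the crosslinks in all constitutive coding exons, 29.5%, 35.2% and 29.4% lay in members. The density was 5.25, 6.08 and 10.9 crosslinks per kb in members and 1.18, 1.05 and 2.29 in purine-poor exons. On the opposite strand members held 55, 113 and 57 crosslinks, or 0.641%, 1.14% and 0.321% of the sense number. Over all constitutive coding exons this share was larger, at 1.83%, 4.50% and 0.835%. Per kb the opposite strand held 0.0337, 0.0692 and 0.0349 crosslinks in members and 0.0419, 0.148 and 0.0377 in purine-poor exons. Most single exons were thinly covered. No crosslink in any library was found in 7514 members (53.4%), against 76.0% of purine-poor exons, and 1810 members had crosslinks in all 3 libraries.

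To take account of how much of each RNA was present and recovered, the crosslinks of every exon were compared with the number expected from the density of the other exons of the canonical transcript. Summed over the members, observed over expected was 1.72, 2.48 and 1.58 in replicates 1, 2 and 3, on average 1.93 ± 0.486 (SD, n = 3). On the log2 scale this was 0.79, 1.31 and 0.66, mean 0.92 ± 0.35, and 0.72 without replicate 2. Purine-poor exons had log2 values of 0.13, -0.15 and 0.23, mean 0.07 ± 0.20, and 0.18 without replicate 2. All constitutive coding exons outside the members had 0.23, 0.18 and 0.31, mean 0.24 ± 0.06, so a value above 0 was not particular to members. The members were above the purine-poor exons in 3 of 3 libraries, by 0.66, 1.46 and 0.42 (mean 0.85 ± 0.55, or 0.54 without replicate 2). The exact two-sided sign-flip permutation test over 3 libraries gave p = 0.25, which is the smallest value it can give with 3, and the same p of 0.25, raw and adjusted, held for each of the 7 differences of this kind that were computed.

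The level of the members depended on the reference. When only the other constitutive coding exons of the gene served as reference, in place of all exons including the transcript ends, the log2 value was 0.32, 0.70 and 0.19 in members, mean 0.40 ± 0.26, and -0.14, -0.60 and -0.09 in purine-poor exons, mean -0.28 ± 0.28. Without replicate 2 these means were 0.26 and -0.12. The difference between the sets with this reference was 0.46, 1.29 and 0.29, mean 0.68 ± 0.54 (SD, n = 3), and 0.37 without replicate 2.

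From 50% purine upward, each band of purine share had a higher crosslink level than the band before it in all 3 libraries, and below 50% there was no such order. Mean log2 observed over expected was 0.15 ± 0.23 below 40% purine, 0.05 ± 0.20 from 40 to 45%, 0.09 ± 0.18 from 45 to 50%, 0.20 ± 0.08 from 50 to 55% and 0.42 ± 0.11 from 55 to 60% (SD, n = 3). Replicate 2 was below 0 in each of the first 3 bands, at -0.12, -0.16 and -0.11, and without it their means were 0.28, 0.16 and 0.20. Within the members it was 0.72 ± 0.25 from 60 to 65%, 1.04 ± 0.40 from 65 to 70%, 1.36 ± 0.55 from 70 to 75% and 1.73 ± 0.76 at 75% and over, with 266 exons in the last band. The last band exceeded the band from 60 to 65% by 0.91, 1.57 and 0.56 in the 3 libraries. The 2954 exons just outside the threshold, with 59 to 60% purine, had 0.57 ± 0.15, and the 2924 members just inside it, with 60 to 61%, had 0.61 ± 0.15.

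**Figure D1:**
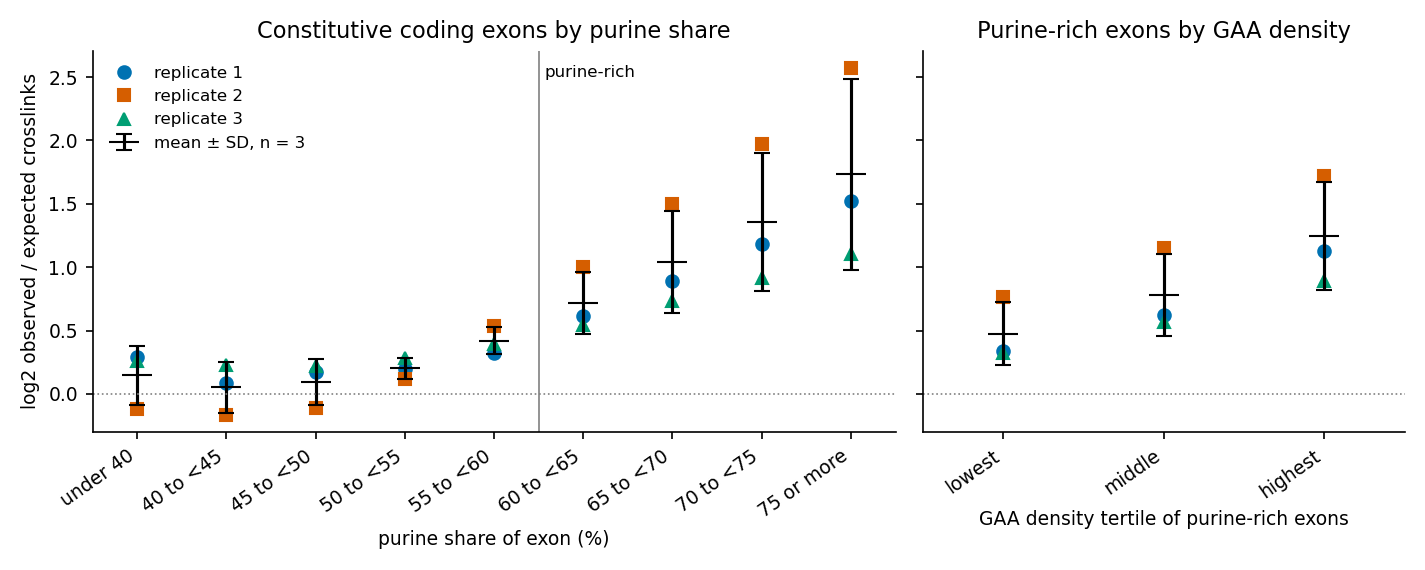
Log2 of observed over expected crosslinks (vertical axis) for constitutive coding exons by purine share in percent (left) and for purine-rich exons by tertiles of GAA density (right), with each of the 3 libraries as a point and the black bars as mean ± SD. All 3 libraries were highest in the exons with at least 75% purine, where the mean was 1.73, and in the tertile with most GAA, where it was 1.25.

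GAA density, which the rule did not use, separated the members further. The tertile with the fewest GAA per 100 nt had log2 values of 0.34, 0.77 and 0.32 (mean 0.48 ± 0.25), the middle tertile 0.62, 1.15 and 0.57 (0.78 ± 0.32) and the tertile with the most GAA 1.13, 1.72 and 0.89 (1.25 ± 0.43). The highest tertile was above the lowest in 3 of 3 libraries, by 0.79, 0.95 and 0.56 (mean 0.77 ± 0.19, exact sign-flip permutation p = 0.25). GAA density and purine share move together, so the tertiles were also formed within 60 to 65% purine, where the highest tertile exceeded the lowest by 0.51, 0.70 and 0.35, from 0.44 ± 0.13 to 0.97 ± 0.30. Below the threshold the same split was seen. Exons with 55 to 60% purine and a GAA density as in the highest tertile of members had 0.83 ± 0.28, and those with a density as in the lowest tertile had 0.27 ± 0.10. The 160 members without any GAA had only 20, 11 and 44 crosslinks against 17.9, 20.02 and 35.9 expected, a log2 value of -0.14 ± 0.63 (SD, n = 3), above expectation in 2 of the libraries and below it in replicate 2, without which the mean was 0.22.

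Other properties of the members went with smaller differences. Members with more A than G had log2 values of 0.87, 1.37 and 0.74 (mean 1.00 ± 0.33), with GAA at 5.12 per 100 nt. The others had 0.46, 1.12 and 0.27 (0.62 ± 0.45), with GAA at 3.44 per 100 nt, and without replicate 2 the means were 0.81 and 0.36. Within the tertile with fewest GAA the same groups stood at 0.55 ± 0.20 and 0.37 ± 0.35, or 0.44 and 0.18 without replicate 2. Within the tertile with most GAA they stood at 1.25 ± 0.41 and 1.18 ± 0.65, where members with more A than G were higher in replicates 1 and 3 (1.14 against 0.98 and 0.90 against 0.66) and lower in replicate 2 (1.69 against 1.90). Members whose longest unbroken purine run was 20 nt or more, of which there were 486, had 1.46 ± 0.57, against 0.79 ± 0.30 for runs under 12 nt, and their GAA densities were 6.16 and 4.24 per 100 nt. Over exon length the values were 1.04 ± 0.42 for members of at most 100 nt, 0.94 ± 0.36 for lengths over 100 and up to 150 nt and 0.80 ± 0.27 for longer ones, and in each of these length classes the purine-poor exons were lower (0.24 ± 0.17, 0.10 ± 0.18 and -0.05 ± 0.26). Without replicate 2 the purine-poor values were 0.30, 0.20 and 0.10, and those of members 0.80, 0.74 and 0.65. Members in the early, middle and late tertile of the exons of a transcript had 1.01 ± 0.37, 0.90 ± 0.37 and 0.86 ± 0.30 (SD, n = 3).

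Single exons were then tested. An exon could be tested when its transcript had at least 20 exonic crosslinks over the 3 libraries, which held for 6251 members in 1965 genes. Of these, 1140 had no crosslink and 141 passed the minimum only through their own crosslinks. The other 7829 members were not tested, and 2321 of them lay in transcripts with no crosslink at all. An exon was called when an exact binomial test, two-sided and based on length, gave a Benjamini-Hochberg adjusted p under 0.05, over all 32798 exons tested, in the same direction in each library.

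By this rule 28 members in 24 genes were called higher, 0.448% of those tested, against a background of 29 exons or 0.0884% over all exons tested. The only other exon called was Kifap3 exon 7, with 53.6% purine, 6 GAA and 7, 3 and 17 crosslinks against 0.635, 0.0529 and 1.38 expected. No purine-poor exon was called among 2671 tested. These had fewer expected crosslinks, with a median of 1.03 against 1.50 in tested members. At least 10 were expected in 47 purine-poor exons and 358 members, so the 2 sets were not tested at equal depth. No member was called lower, and the background for lower was also 0%. At an unadjusted p under 0.05 in all 3 libraries, the exact binomial test gave 0 members and 1 other exon lower, and 137 members and 62 others higher. Depth limited the calls in this direction, since in only 69 tested members a count of 0 in every library would have given a one-sided p under 0.05 in each. The call asked for more, a two-sided and adjusted p, so fewer members may have been within its reach. Ccdc136 exon 3, with 0 crosslinks against 22.4, 2.01 and 50.1 expected, did not pass in replicate 2. The absence of lower calls therefore says little about members with few crosslinks. With the 3 libraries summed and tested once, 756 members (12.1%) were higher against a background of 4.49%, and 13 members (0.208%) were lower against 0.143%. Summing leaves the spread between libraries out of the test, so these counts do not measure agreement between replicates. With the other constitutive coding exons as reference, 4 of 4442 members were called higher against a background of 0.0184%, and none lower against 0%. Those 4 were Chd5 exon 3, Supt5 exon 3, Ipo5 exon 21 and Eif3c exon 5. When replicate 1, 2 or 3 was left out, so that an exon had to pass in the remaining pair only, 67, 63 and 37 members were called higher, out of 83, 88 and 42 exons called over all those tested, a background of 0.253%, 0.268% and 0.128%. Without replicate 2, 1 member was called lower, against a background of 0.0061%, and without replicate 1 or 3 none was. An exon that passes in all 3 libraries passes in any pair of them by construction.

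The called members were rich in GAA even among purine-rich exons. Their median was 7.85 GAA per 100 nt, against 4.71 over the tested members, and 24 of the 28 lay in the tertile with most GAA, 3 in the middle and 1 in the lowest, where 2326 of the 6251 tested members lay in the tertile with most GAA. Purine shares ran from 60.3% to 82.6%, with 13 at 70% or more. They held 1556 crosslinks in all, 4.29% of those in members. The level was also higher in a wider set of tested exons, which includes called ones. Among exons with at least 10 expected crosslinks over the libraries, 144 of 358 members (40.2%) were above expectation in all 3 libraries and 45 (12.6%) below, against 15.4% and 28.2% of the 798 other exons.

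The levels of the named exons below refer to all other exons of the transcript, its ends included. Of the 10 called members with the highest mean level, only Ipo5 exon 21 and Supt5 exon 3 were also called with the other constitutive coding exons as reference. Among the 10, a pair came from importin genes, whose products carry proteins into the nucleus. Kpna4 exon 3, from an importin alpha gene, had 7, 6 and 16 crosslinks where 0.237, 0.155 and 0.516 were expected, a mean log2 of 3.56 ± 0.40 with 0.5 added to both counts (largest adjusted exact binomial p = 2.44e-05). Ipo5 exon 21, from an importin beta family gene, had 22, 5 and 43 against 1.21, 0.206 and 2.83 (3.46 ± 0.43, exact binomial p = 0.000829). It held 2 GAA in 56 nt, the fewest of the 28, and 1 near-identical copy of it lies elsewhere in the genome. All libraries were above expectation for both exons, with replicate 2 lowest for Ipo5.

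Another pair came from genes of cilia. Ift57 exon 4, which encodes a piece of an intraflagellar transport protein, had 8, 9 and 6 crosslinks against 0.121, 0.0703 and 0.432 expected (mean log2 3.55 ± 0.66, largest adjusted exact binomial p = 0.00155). Cfap298 exon 3, from a gene needed for dynein arm assembly in motile cilia, had 12, 3 and 19 against 0.450, 0.0978 and 1.15 (3.28 ± 0.63, exact binomial p = 0.0289). The call for Cfap298 rested in replicate 2 on 3 crosslinks.

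Another 4 came from genes of varied function. Arglu1 exon 2, from an arginine and glutamate rich coregulator, held 21 GAA in 226 nt and had 9, 26 and 17 crosslinks against 0.569, 1.40 and 1.75 (3.30 ± 0.44, largest adjusted exact binomial p = 0.000117). Supt5 exon 3, from the elongation factor gene of the DSIF complex, had 8, 13 and 12 against 0.595, 0.332 and 2.48 (3.01 ± 0.98). The last of these were Mtdh exon 9, with 11, 6 and 35 crosslinks against 0.900, 0.228 and 2.58 and Trip12 exon 27, from a ubiquitin ligase gene, with 20, 5 and 31 against 1.40, 0.577 and 3.00. In Arglu1 and Supt5 replicate 2 gave the highest level and replicate 3 the lowest, while in Trip12 replicate 2 gave the lowest.

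The other 17 called members besides Chd5 exon 3 had mean log2 values from 1.69 to 2.77. They lay in Ehmt2 exon 8, Wbp4 exon 5, Hook1 exons 16, 18 and 19, Wasf2 exon 5, Eif3c exon 5, Dync2i1 exon 4, Tmco5 exon 9, Cep63 exon 11, Eif5b exon 5, Kif27 exon 13, Chd5 exons 2 and 35, Mns1 exon 3, Iqcf3 exon 2 and Smarca2 exon 28. Ehmt2, Chd5 and Smarca2 encode chromatin enzymes, Eif3c and Eif5b translation initiation factors, and Cep63 and Kif27 a centrosome protein and a kinesin.

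Chd5, a chromatin remodeller of spermatids, had the member with the most crosslinks. Its exon 3 had 50, 36 and 57 crosslinks where 6.85, 2.85 and 13.0 were expected, a mean log2 of 2.77 ± 0.68 (SD, n = 3) with a largest adjusted exact binomial p of 1.98e-15. The exon is 78.8% purine with 19 GAA, several of them in the tandem repeats shown above. The 143 crosslinks fell on 80 of its 189 nt. A window of 41 nt, from nt 114 to 154, held 54 of them (37.8%), with 22, 12 and 20 in the 3 libraries. Over the whole exon 4 positions were hit in all 3 libraries, nt 59, 114, 120 and 133, the first of them outside this window. Over the 10 members of the gene, 438 crosslinks were observed and 154 expected.

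**Figure D2:**
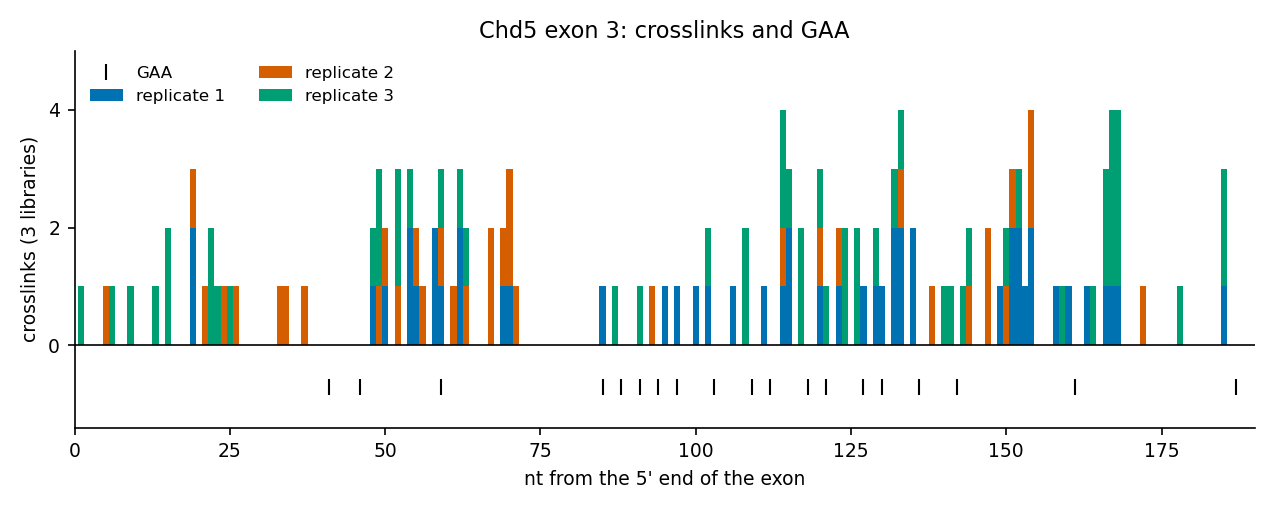
Crosslinks in Chd5 exon 3 by distance in nt from its 5′ end, stacked over the 3 libraries, with the middle base of each GAA as a tick below the axis. The 143 crosslinks spread over 80 positions, none of them between nt 72 and 84, and 19 GAA are marked.

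Hook1, a microtubule-linked gene active in the manchette of elongating spermatids, had the most crosslinks in members of any gene, 541 over 9 exons where 204 were expected. Exon 18 had 27, 19 and 49 against 5.11, 1.34 and 11.4 (mean log2 2.58 ± 0.72, largest adjusted exact binomial p = 3.94e-08) and exon 19 had 27, 16 and 35 against 6.24, 1.70 and 14.2 (2.07 ± 0.82). Exon 11, with 61.9% purine and 2.97 GAA per 100 nt, had 31, 6 and 54 against 12.6, 3.83 and 28.3 and was not called. All 3 exons exceeded expectation in all libraries.

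High crosslink numbers did not always mean a high level. Hsp90b1 exon 13, from an endoplasmic reticulum chaperone gene, came next by crosslinks, level with Odf2 exon 12 at 113 in all, with 30, 6 and 77, but 38.1, 10.3 and 81.7 were expected, a log2 value of -0.38 ± 0.33, below 0 in all 3 libraries. Odf2 exon 12, from a sperm tail outer dense fibre gene, had 33, 14 and 66 against 15.8, 5.24 and 36.3 (1.08 ± 0.24), and passed the adjusted threshold in replicate 3 only. Nasp encodes a histone chaperone. Its exon 5 had 26, 28 and 57 against 11.3, 5.92 and 25.1 (1.50 ± 0.57) and missed the call in replicate 1 with an adjusted exact binomial p of 0.0555, and its exon 11 had 40, 16 and 49 against 16.7, 9.72 and 39.1 (0.75 ± 0.46). Hnrnpu exon 11, from an RNA-binding protein gene, had 19, 8 and 61 against 6.08, 3.42 and 17.4 (1.49 ± 0.34) and missed the call in replicate 2. Iqcf3 exon 2, from a gene with IQ motifs, was called with 28, 13 and 62 against 11.1, 0.631 and 35.6 (1.89 ± 1.49), where replicate 2 had only 8 crosslinks in the rest of the transcript.

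**Figure D3:**
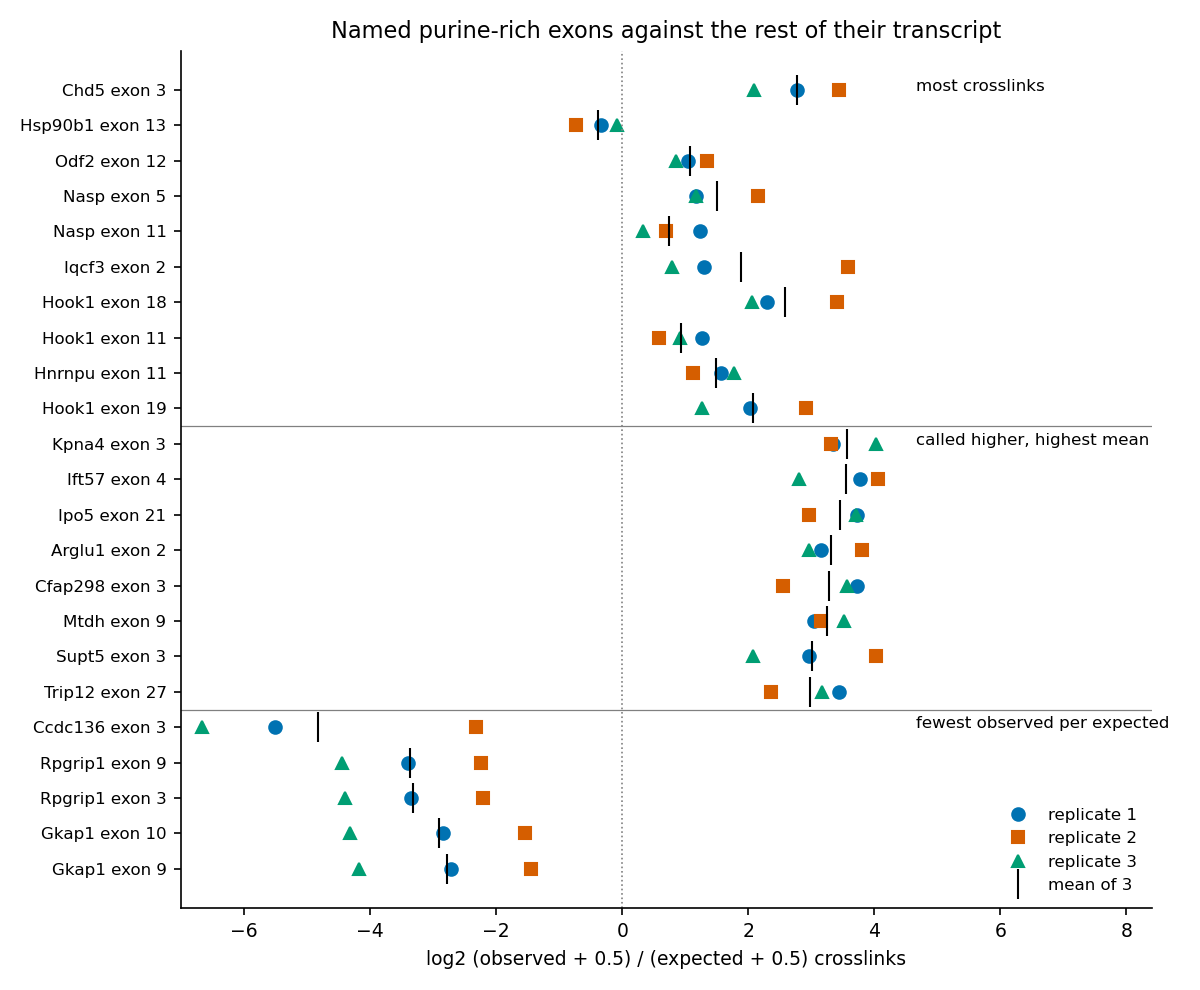
Log2 of observed over expected crosslinks, with 0.5 added to both (horizontal axis), for the named purine-rich exons, with each library as a coloured point and the mean as a black bar. The exons with most crosslinks (top) range in mean from -0.38 for Hsp90b1 exon 13 to 2.77 for Chd5 exon 3, 8 of the called exons with the highest mean (middle) from 2.99 to 3.56, and the exons with fewest crosslinks for their expectation (bottom) had none in any library.

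At the other end, 5 members with at least 10 expected crosslinks had none. Ccdc136 exon 3, from a coiled-coil gene needed for acrosome formation, had 0 crosslinks against 22.4, 2.01 and 50.1 expected. The exons around it were also empty, since exons 1, 2 and 4 had none in any library, while exons 5 to 18 had 24 to 290 each. Rpgrip1, a cilium gene, had 0 in exons 3 and 9 against 16.4 and 17.03 expected in all. Its exons 1 to 10 held 2 crosslinks in total and exons 18 to 25 each held 12 to 156. Gkap1, which encodes a kinase-anchoring protein, had 0 in exons 9 and 10 against 12.2 and 13.5 expected. Its exons 7 to 11 held 1 crosslink together and exons 1 to 5 each held 13 to 140. In all 3 genes the members without crosslinks thus lay in runs of empty exons of the annotated transcript, and both Gkap1 members had a near-identical copy elsewhere in the genome. Whether these exons are present in testis RNA was not tested.

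The members per gene ranged from 1, in 3079 genes, to 96, and 617 genes had at least 5. Efcab3, an EF-hand gene, had 96 members among 188 exons, with 43, 49 and 112 crosslinks against 43.3, 42.3 and 96.2 expected. The reference of each member included the other members of its transcript. Where these are many, as in Efcab3, Cep290 (54 exons) and Gm45861 (70 exons), the summed level is drawn towards expectation by construction. Cep290, a cilium transition zone gene, had 37 members with 50, 25 and 108 against 38.3, 20.5 and 100.1, and Syne1, a nuclear envelope gene, 33 members with 2, 9 and 9 against 5.62, 5.97 and 7.14. Gm45861, a predicted gene, had 31 with 84, 127 and 194 against 61.7, 78.7 and 138.9. Neb, the nebulin gene of muscle, had 36 members with a single crosslink and was not tested. None of the members of these 5 genes was called.

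The summed level was above expectation in all 3 libraries for members of 10 of the 11 gene lists, with chaperones as the exception. Over all tested members, the median log2 with 0.5 added was 0.50, against -0.05 for the other exons tested and -0.20 for purine-poor exons, and the summed log2 of all members was 0.92 as given above. The counts of called members that follow stand beside 0.448% of all tested members and 0.0884% of all tested exons. Genes of splicing factors and RNA helicases had a median of 0.78 over 122 tested members with none called, and a summed log2 of 1.305 ± 0.26. Chromatin genes had a median of 0.59 over 204 with 4 called, all in Chd5 and Smarca2, and a summed value of 1.23 ± 0.45. Translation factors had 0.62 over 37 with 2 called and a summed value of 1.01 ± 0.17. For spermatogenesis genes (Spata, Tex, Spag and Odf families with Akap3 and Akap4) the median was 0.78 over 67 with none called and the summed value 0.90 ± 0.38. Cohesin, condensin and synaptonemal complex genes had a median of 0.41 over 129 with none called and a summed value of 0.69 ± 0.31.

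Among cytoskeletal families, axonemal dynein heavy chains had a median of 0.26 over 77 with none called, cilia and flagella associated genes 0.40 over 103 with 1 called, coiled-coil genes 0.32 over 280 with none, centrosome genes 0.35 over 282 with 1 and kinesins 0.17 over 121 with 1. Their summed values in the same order were 0.61 ± 0.34, 0.65 ± 0.27, 0.52 ± 0.33, 0.74 ± 0.16 and 1.00 ± 0.12. Chaperones had a median of 0.23 over 6 members with none called, but their summed log2 was -0.30 ± 0.08, below 0 in all libraries. Of the summed values of these lists, that of coiled-coil genes moved most for its size without replicate 2, to 0.34. The purine-poor exons of coiled-coil genes had 0.40 without replicate 2. Over 3 libraries they had 0.31 ± 0.31, above 0 in each, and a median of 0.39 over 16 tested. The purine-poor exons of chaperones, only 2, had 0.82 ± 0.38. In the other lists the summed mean of purine-poor exons was below that of members. No list was tested against another.

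Along the exon, crosslinks of members were spread almost evenly in replicates 1 and 3 and leaned to the 3′ side in replicate 2. The part beyond the midpoint held 49.9% (95% Clopper-Pearson interval 48.8 to 50.97%), 55.9% (54.9 to 56.9%) and 49.3% (48.5 to 50.01%) in the 3 libraries, on average 51.7% ± 3.66 (SD, n = 3) and 49.6% without replicate 2. In the other constitutive coding exons it held 49.4%, 63.6% and 48.0%. The shift of replicate 2 was thus present in exons of both kinds, and 49.7% of the GAA of members lay beyond the midpoint. The last of 10 equal segments of the exon held the fewest crosslinks in all 3 libraries, 7.60%, 6.13% and 8.005%, against 9.05% of the GAA. In members of at least 120 nt, the density in the last 10 nt was 0.69 ± 0.06 of the exon mean, and in the other exons 0.83 ± 0.05. From 31 to 40 nt before the 3′ end it was 1.21, 1.79 and 1.12 of the mean in members, and 1.08, 2.21 and 1.01 in the other exons.

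**Figure D4:**
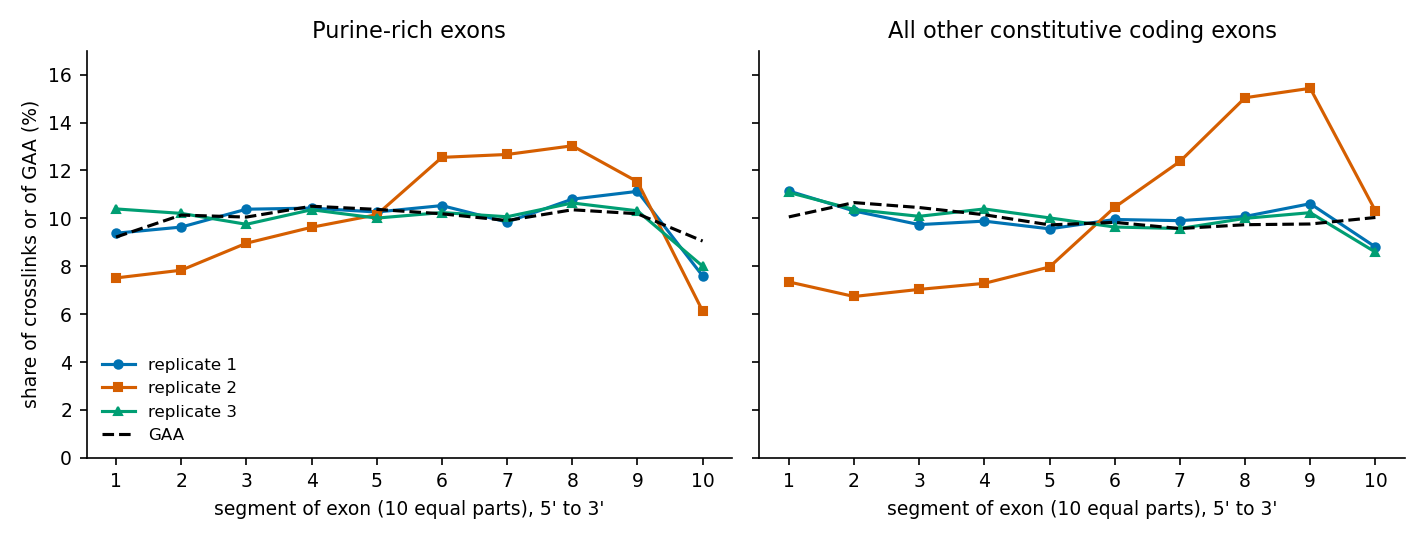
Share of crosslinks in percent (vertical axis) by 10 equal segments of the exon from 5′ to 3′, for purine-rich exons (left) and all other constitutive coding exons (right), with 1 line per library and the share of GAA as a dashed line. Replicates 1 and 3 stay near 10% up to the segment before the last in both kinds of exon, replicate 2 rises towards the 3′ side to 13.0% in members and 15.4% in the others, and the last segment falls to between 6.13% and 8.005% in members.

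At single nucleotide level, the crosslinked base of members was T 1.64 ± 0.06 times and G 1.302 ± 0.10 times as often as in the exons that held it, and A and C 0.64 ± 0.06 and 0.65 ± 0.10 times (SD, n = 3). In purine-poor exons T was also raised, 1.71 ± 0.01 times, and G was at 0.99 ± 0.04. The middle base of GAA fell on the crosslinked nucleotide less often than in the same exon at large, at 0.52, 0.59 and 0.56 of the exon mean. For the last base of GAA it was 0.58, 0.66 and 0.58. Both are A, which was at 0.64 at crosslinks in general, as given above. The frequency of the middle base was highest 1 nt downstream in replicates 1 and 3, at 1.62 and 1.79, where replicate 2 had 0.83. At this distance the crosslinked nucleotide is the G of the GAA, so GAA as a whole was not absent from crosslinks. In replicate 2 the frequency was highest 7 nt downstream, at 1.83, where the others had 1.31 and 1.26. At 4 nt downstream all libraries were raised, at 1.36, 1.44 and 1.39. Over the 30 nt downstream the mean was 1.08, 1.24 and 1.05, and over the 30 nt upstream 1.08, 1.00 and 1.06. The position of GAA relative to the cDNA end therefore differed between replicate 2 and the other libraries, and the cause was not tested.

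**Figure D5:**
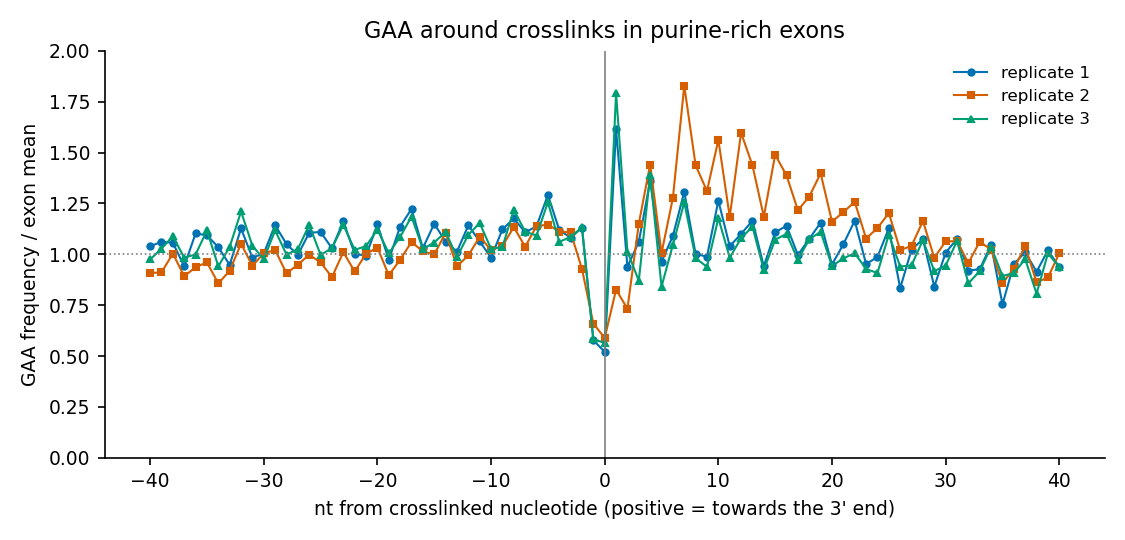
Frequency of GAA (middle base) around crosslinked nucleotides in purine-rich exons, divided by the mean of the same exons, by distance in nt, with 1 line per library. All libraries dip to 0.52 to 0.59 where the middle base is the crosslinked nucleotide. Replicates 1 and 3 peak at 1 nt downstream (1.62 and 1.79), where the crosslinked nucleotide is the G of the GAA, and replicate 2 peaks at 7 nt downstream (1.83).

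Recurrence between libraries was higher in members than elsewhere. Positions hit in all 3 libraries numbered 90, in 62 members of 47 genes, or 5.51 per 100 kb, against 47 (0.396 per 100 kb) in all other constitutive coding exons and 3 (0.209 per 100 kb) in purine-poor exons. Nasp exon 5 had 5 of them, Chd5 exon 3 and Hook1 exon 16 had 4 each, and Chd5 exon 2, Iqcf3 exon 2, Tmco5 exon 9 and Trip12 exon 27 had 3 each. The members also had more crosslinks per kb, as given above, and the part of density in this number was not tested. Over the 6251 tested members, which share transcripts and differ in expression, Spearman's rho of crosslinks across exons was 0.386 between replicates 1 and 2, 0.585 between 1 and 3 and 0.381 between 2 and 3.

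Crosslink density was lower in the flanking introns than in the members. The RNA levels of exons and introns were not analysed, so RNA level and crosslinking cannot be told apart in this comparison. In the 9496 members with introns of at least 400 nt on both sides, the density was 5.47, 6.05 and 11.3 per kb in the exon, 0.214, 0.318 and 0.331 in the 200 nt upstream and 0.236, 0.257 and 0.310 in the 200 nt downstream. The log2 ratio of exon to flanking intron was 4.60, 4.40 and 5.14, mean 4.71 ± 0.38, and 4.87 without replicate 2. Purine-poor exons had 3.27 ± 0.75 and the exons between both sets 3.69 ± 0.62 (SD, n = 3). The intron flanks themselves were also denser beside members than beside purine-poor exons, where 0.113, 0.164 and 0.165 per kb lay upstream and 0.143, 0.163 and 0.143 downstream.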

How the data were processed

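The submitters' processing notes name Trim Galore 0.6.7, Bowtie 1.3.1, STAR 2.7.9a, UMI-tools 1.1.2 and the build mm39, and the study's methods name the iMAPS pipeline. The authors deposited, for each of 3 libraries, the count of unique cDNAs per crosslinked nucleotide and strand, not normalised. How multi-mapping reads were handled is not given in the sources used here. This could lower or spread counts in exons with copies: 1494 members (10.6%) had a match elsewhere in GRCm39 of at least 95% identity over at least 80% of their length (BLAST+ 2.17.0), and they held 2.69%, 2.31% and 3.27% of member crosslinks.

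Exons were taken from GENCODE vM39, and 371 duplicates of shared coordinates were merged. Counts were read by strand with Python 3.11.15, pandas 2.3.3 and SciPy 1.17.1. Expected crosslinks were the crosslinks per nt in the other exons of the canonical transcript times the exon length. Exact two-sided binomial tests were run in each library over 32798 exons, with Benjamini-Hochberg adjustment and a threshold of 0.05, and were tested on simulated data. Members overlap another gene in 635 cases (4.51%). A count of 0 allows up to 3 counts, or 8.62, 4.84 and 6.14 CPM in replicates 1, 2 and 3. Intervals and exact binomial p-values cover counting error only. The null of these tests is an even density over the exons of a transcript.

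Named exons were the 10 with most crosslinks, the 10 called with the highest mean log2, the 5 with at least 10 expected crosslinks and the fewest observed per expected, and the 5 genes with most members; 3 further sets of names (the other called exons, the neighbours of empty exons, and exons with shared positions or behind small counts, such as Kifap3) were added after their values were seen, as were the genes Hook1 and Chd5 as totals. Of the called 10, 2 are not reported here. Sequences were printed for the other 8, with 2 additions named in the text. The members and the lists were chosen with earlier results of these data known. Alternatives changed the reference, counting of positions, thresholds, exon edges, genes and libraries.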

Additional observations from a re-analysis of the deposited data

How the results depend on the processing

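Not every alternative was run for every result. Purine-rich exons stayed above expectation in the 12 alternatives run for their level, above purine-poor exons in 13 and above their flanking introns in 6. The tertile with most GAA stayed above the tertile with least in 7, and the share beyond the exon midpoint moved by less than 1 SD in 6. The level of purine-rich exons moved by more than 1 SD once, to 0.40 with the other constitutive coding exons as reference. Leaving out each library in turn gave 0.72 to 1.05 for this level, 0.54 to 1.06 for the difference from purine-poor exons, 0.68 to 0.87 for the GAA tertiles, 4.50 to 4.87 for exon over intron and 49.6% to 52.9% for the share beyond the midpoint.

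The number of members called higher, 28, was 4 with that reference, where 4442 members could be tested, and 756 with the libraries summed, which ignores the spread between them. Without a library an exon has to pass in 2 libraries only, and the number was 37 to 67 (67 without replicate 1, 63 without replicate 2). The number called lower, 0, was 13 with the libraries summed and 0 to 1 without a library. Leaving out members with a near-identical copy, and asking for 20 crosslinks in the other exons, were added after seeing the data and kept both counts within 1.5 times. Differences between exon sets were taken within each library, and no replicate block between groups applied because there is 1 group. Depth limits single exons, since 7829 members could not be tested.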
